A study of Mus musculus with 168 samples.

Results

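The comparison described here set the hippocampus of 10-month-old mice heterozygous for the Q140 allele of Htt against that of controls of the same age. Libraries were chosen by their titles. The 8 libraries titled Q140 and the 16 titled WT or Q20 (8 each) were compared, 24 libraries of a series that holds 8 for each of 7 genotypes at each of 3 ages (2, 6 and 10 months). The series sequenced messenger RNA of the hippocampus in an allelic series of Huntington's disease, in which mice carried 1 of 6 knock-in alleles with CAG repeats of different length or were wild type (WT). It asks how the transcriptome depends on repeat length and age, and WT and Q20 together are its control group.

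Q140 and Q20 mice carried 1 wild-type Htt allele and 1 allele in which the first exon was replaced by that of human HTT, with a repeat named after its length, and WT mice carried no knock-in allele. All were C57BL/6 per the labels, with C57BL/6J dams per the study's methods, and each library came from 1 animal. The Q140 and WT groups held 4 females and 4 males each, and the Q20 group 5 females and 3 males. The repeat is present in every cell from conception, since the knock-in is expressed from the locus of Htt itself. The labels list Q140 animals as caged with other Q140 animals and the controls as caged with Q20 and WT animals, whereas the study's methods describe cages that mixed heterozygous and wild-type animals. Cage effects were not tested, and genotype and line cannot be told apart. The WT littermates of the Q140 line itself were not used here.

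Huntingtin, the product of Htt, is a large scaffold protein with roles in vesicle transport and transcription, and a long glutamine stretch encoded by the CAG repeat causes Huntington's disease. The striatum is affected first, and the hippocampus is involved in the memory deficits of the disease and of its mouse models. Cholesterol synthesis is of interest here because brain cholesterol is made within the brain, in astrocytes and oligodendrocytes above all, under the control of the sterol-sensing transcription factor SREBP2, and lower expression of its genes has been described in other Huntington's disease models. Oligodendrocytes wrap axons in myelin and arise from precursors that first become premyelinating cells, and astrocytes supply neurons with lipids and serine and clear potassium and glutamate.

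Libraries held 31.47 to 41.35 M counts (M for 1e6) in Q140, 30.6 to 42.71 M in WT and 31.94 to 39.6 M in Q20. No pair of libraries within a group was a duplicate (84 pairs, lowest chi-square per gene 5.683). Standardized connectivity, a measure of how similar a library is to the others of its age, fell below -5 in 5 of the 56 libraries of 10 months. Of these, 2 were controls (Q20 female 5 at -122.4 and WT female 2 at -6.292) and none was Q140. Levels are given in CPM, the reads of a gene in every 1e6 counts of a library. Q20 female 5 also went against its label, with 0.06154 CPM of Xist and 55.05 CPM of the Y-linked Ddx3y, and its ribosomal protein genes summed to 29390 CPM. Transcripts of the choroid plexus, the tissue that makes cerebrospinal fluid, varied between libraries. Their list of 12 markers summed to between 42.34 and 157.1 CPM in Q140 and between 39.72 and 9498 CPM in controls, with no marker at 0 in all libraries of a group. Ttr, the most abundant of them, exceeded 1000 CPM in 5 of 16 controls (3 WT and 2 Q20), all labelled female, and in 0 of 8 Q140 libraries. Leaving these controls out therefore also changes the balance of sexes among the controls. Results are given for all libraries and for 8 Q140 libraries against the 14 controls left without the libraries that stand apart. The second comparison also leaves out the libraries of other alleles that stand apart, since the fit holds all libraries of 10 months. Of the 139 genes that passed in it, 17 also passed when only the 2 controls were left out. In the Q140, WT and Q20 libraries alone, without those that stand apart, 39 of the 139 passed. RNA of whole tissue does not tell fewer cells of a type from less RNA per cell, and this holds for every gene below.

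The targeted gene was examined first. Htt (ENSMUSG00000029104) lies on chromosome 5 at 34761740 to 34912534, where positions are those of GRCm38 throughout. It ranged from 183.3 to 208.6 CPM in Q140 (median 191.9), from 200.1 to 224 CPM in WT (median 211.5) and from 124.1 to 239.2 CPM in Q20 (median 206). The Q140 libraries overlapped with both control groups, although 8 of 8 lay below the median of the controls. The lowest control was Q20 female 5, which stands apart, and the next was Q20 female 4 at 199.2 CPM. Only Q140 female 2 (208.6 CPM) and Q140 male 1 (207.7 CPM) lay above the latter, and every other Q140 library lay below it. The difference was -0.09 on the log2 scale (SE 0.13) and did not pass (edgeR, adjusted p = 0.986). It ran from -0.175 to -0.01 over 50 alternatives and passed in 0 of them, including that without the libraries that stand apart. The counts do not separate the knock-in from the wild-type allele, so they do not check the repeat length.

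Few genes separated Q140 from controls at 10 months. With all libraries, 12 of 17266 genes passed an adjusted p of 0.05 in edgeR's quasi-likelihood test (0.0695% of genes tested), of which 8 rose (0.0463%) and 4 fell (0.0232%). At an unadjusted p of 0.05, 973 genes passed (5.64%), 2.53% of all genes as higher and 3.11% as lower. For 0 genes (0%) did all 8 Q140 libraries lie above, or all below, all 16 controls. The genes that rose were Slc45a3, Cldn14, Tmprss5, Wnt3, Shroom1, Dusp15, Psat1 and Gm10471, and those that fell were Car2, Il33, Hmgcs1 and Gm7361. Nhlh1, a transcription factor of differentiating neurons, lay just outside the threshold at -0.83 (adjusted p = 0.0583), and so did Emilin2, a protein of the extracellular matrix, at 0.50 (adjusted p = 0.0709).

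**Figure D1:**
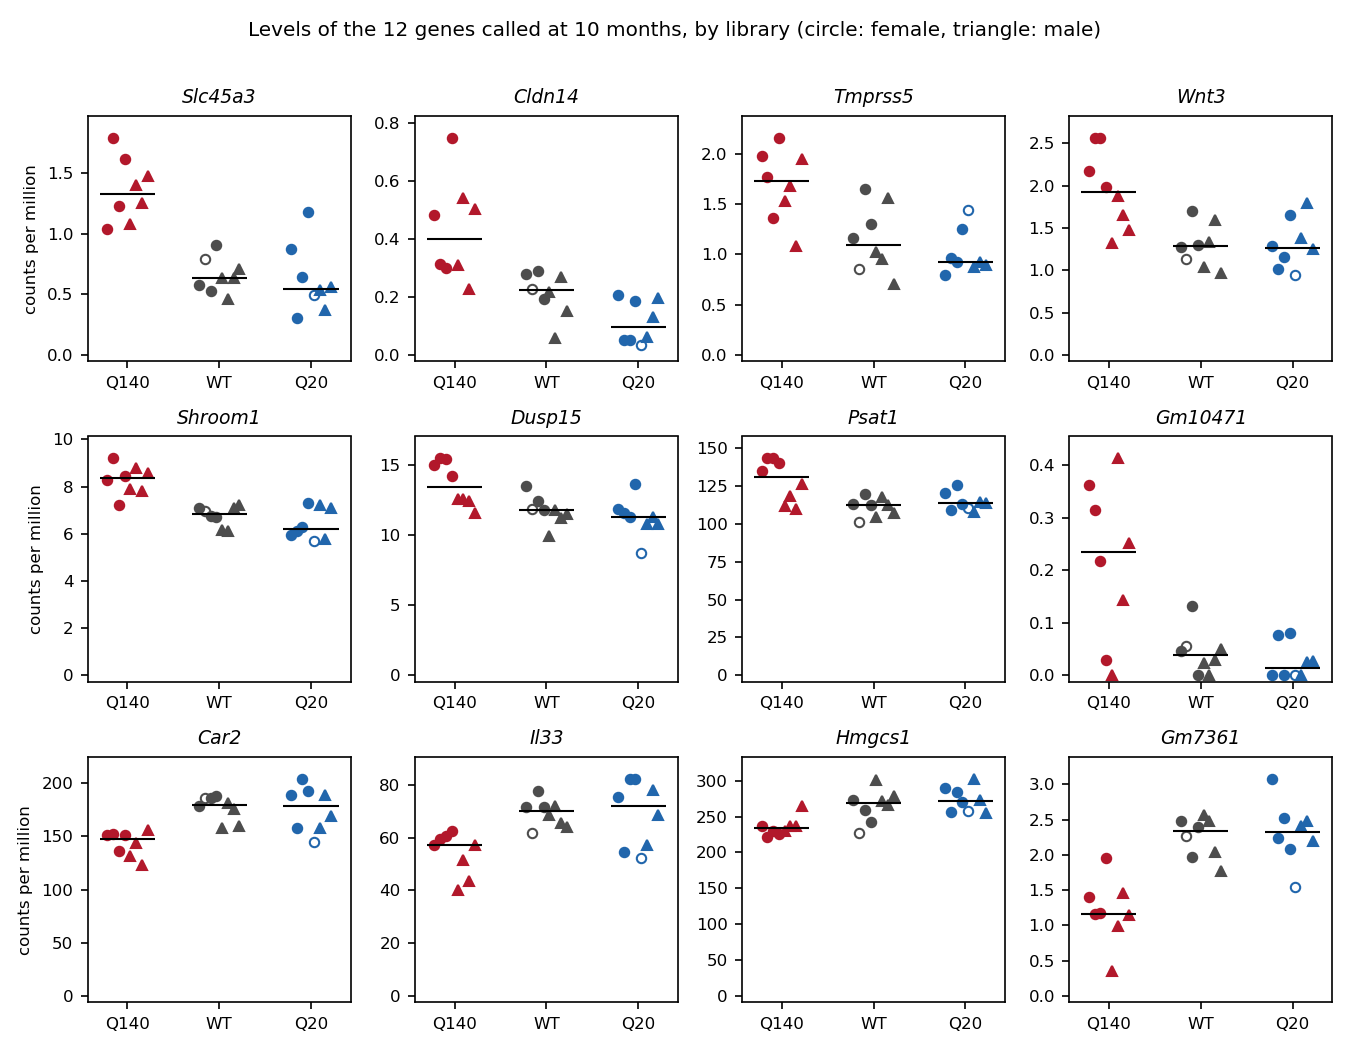
Level (CPM) of the 12 called genes in each of the 8 Q140, 8 WT and 8 Q20 libraries of 10 months. Circles are females, triangles males, lines group medians, and open symbols the 2 control libraries that stand apart. All 8 Q140 libraries sit above the median of the controls for the first 8 genes, except for Psat1 (6 of 8) and Gm10471 (7 of 8). All 8 sit below it for the last 4, and every gene has some overlap.

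Of the genes that rose, Slc45a3 had the lowest p. Slc45a3 (ENSMUSG00000026435, chromosome 1, 131962967 to 131982969) encodes a transporter of the sugar symporter family. Its level ran from 1.039 to 1.792 CPM in Q140 (median 1.33) and from 0.3046 to 1.176 CPM in controls (median 0.605). The groups overlapped in a single control, Q20 female 4, and 6 of 8 Q140 libraries exceeded every control. Slc45a3 rose by 1.10 on the log2 scale (SE 0.17, adjusted p = 4.42e-04).

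Cldn14 (ENSMUSG00000047109, chromosome 16, 93919031 to 94008837), a claudin of tight junctions, was scarce. It ran from 0.2282 to 0.75 CPM in Q140 (median 0.399, 8 to 25 reads) and from 0.0351 to 0.2883 CPM in controls (median 0.191, 1 to 12 reads). Of the Q140 libraries 7 of 8 exceeded every control, and the last, male 3, lay within the range of WT. Cldn14 rose by 1.36 (SE 0.28, adjusted p = 0.0397). The 2 control genotypes gave unequal differences, 1.0 against WT and 1.85 against Q20. Tmprss5 (ENSMUSG00000032268, chromosome 9, 49081260 to 49117587), a membrane-bound serine protease, had 1.084 to 2.16 CPM in Q140 (median 1.73) and 0.7097 to 1.651 CPM in controls (median 0.96), and 5 of 8 Q140 libraries were above every control. It rose by 0.66 (SE 0.14, adjusted p = 0.0401).

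Wnt3 (ENSMUSG00000000125, chromosome 11, 103774150 to 103817957), a secreted ligand that in the adult mouse hippocampus is known to promote neurogenesis, had 1.317 to 2.567 CPM in Q140 (median 1.93) and 0.9477 to 1.791 CPM in controls (median 1.28). It rose by 0.58 (SE 0.11, adjusted p = 0.0255), with 5 of 8 Q140 libraries above every control. Of the 16 Wnt ligands tested it was the only one to pass, and their median difference was -0.02, against -0.01 over all genes. Of the 12 markers of adult neurogenesis tested, 0 passed, with a median of 0.05.

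Shroom1 (ENSMUSG00000018387, chromosome 11, 53457205 to 53467766), of a family of actin regulators that shape epithelial cells, had 7.238 to 9.202 CPM in Q140 (median 8.37) and 5.686 to 7.298 CPM in controls (median 6.74). It rose by 0.33 (SE 0.06, adjusted p = 0.0181), and 7 of 8 Q140 libraries exceeded every control. Dusp15 (ENSMUSG00000042662, chromosome 2, 152940997 to 152951698), a phosphatase known from rodent oligodendrocytes to take part in their differentiation, had 11.61 to 15.52 CPM in Q140 (median 13.4) and 8.74 to 13.66 CPM in controls (median 11.6). It rose by 0.25 (SE 0.05, adjusted p = 0.0397), with 4 of 8 Q140 libraries above every control. Among the 15 MAP kinase phosphatases tested no other passed with all libraries, and the median difference was 0.11.

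Psat1 (ENSMUSG00000024640, chromosome 19, 15904678 to 15947337) encodes the aminotransferase of serine synthesis, a pathway that astrocytes run for neurons. It had 109.7 to 143.2 CPM in Q140 (median 131) and 101.1 to 125.5 CPM in controls (median 113), and rose by 0.19 (SE 0.04, adjusted p = 0.0419). The overlap followed sex. The 4 Q140 females had 134.7 to 143.2 CPM, above every one of the 9 control females (101.1 to 125.5 CPM), whereas the 4 Q140 males (109.7 to 126.5 CPM) overlapped with the 7 control males (104.5 to 117.9 CPM). The 9 control females include Q20 female 5 (110.7 CPM), which goes against its label. That library was counted as a female in these ranges and in the tests by sex. The difference was 0.30 in females (adjusted p = 0.0146; 0.0116% of genes called) and 0.07 in males (adjusted p = 1; 0%), but the test of the difference between sexes did not pass (0.24, unadjusted p = 0.00567, adjusted p = 0.926). Wnt3 was similar, with 0.86 in females (adjusted p = 0.00609), 0.24 in males and a difference between sexes of 0.62 (unadjusted p = 0.00656, adjusted p = 0.926). Over all genes, 0 passed for the difference between sexes in edgeR (0%; 604 at an unadjusted p of 0.05, and 2 in DESeq2). Psat1 was the only 1 of 14 genes of serine and glycine synthesis to pass.

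Of the genes that fell, Car2 (ENSMUSG00000027562, chromosome 3, 14886273 to 14900770) encodes carbonic anhydrase II, an enzyme of pH regulation that is abundant in oligodendrocytes and is also made by the choroid plexus. It had 123.2 to 156.3 CPM in Q140 (median 148) and 145.2 to 204.3 CPM in controls (median 180). The only control within the range of Q140 was Q20 female 5. Car2 fell by 0.30 (SE 0.06, adjusted p = 0.0354), and by 0.29 (adjusted p = 0.0012) also without the libraries that stand apart and the controls above 1000 CPM of Ttr. Il33 (ENSMUSG00000024810, chromosome 19, 29925114 to 29960718), a cytokine released from damaged cells that in the brain is made by astrocytes and oligodendrocytes, had 40.27 to 62.64 CPM in Q140 (median 57.3) and 52.37 to 82.34 CPM in controls (median 70.1). It fell by 0.35 (SE 0.07, adjusted p = 0.0257), with 3 of 8 Q140 libraries below every control and 8 of 8 below their median.

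Gm10471 (ENSMUSG00000073116, 26082574 to 26089291) and Gm7361 (ENSMUSG00000059645, 26257691 to 26264308) are predicted protein-coding genes on chromosome 5, the chromosome of Htt, at 8.68 and 8.5 Mb from it. Gm10471 had 0 to 0.4131 CPM in Q140 (median 0.234, at most 15 reads) and 0 to 0.1311 CPM in controls (median 0.0271), and its fitted difference was 2.56 (SE 0.56, adjusted p = 0.0458). Of the Q140 libraries 6 of 8 exceeded every control and 1 (male 1) had no read. Gm7361 moved the other way, from 1.544 to 3.081 CPM in controls (median 2.34) to 0.3592 to 1.95 CPM in Q140 (median 1.17), and fell by 0.93 (SE 0.20, adjusted p = 0.0419), with 7 of 8 Q140 libraries below every control. How reads shared between copies of such genes were counted is not given in the sources used here, so both values are uncertain. Within 10 Mb of Htt 2 of 166 genes tested passed, and 18 (10.8%) had an unadjusted p under 0.05, against 5.64% of all genes.

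Hmgcs1 (ENSMUSG00000093930, chromosome 13, 119690379 to 119708260), the synthase that makes HMG-CoA for cholesterol synthesis, had 221.5 to 265.5 CPM in Q140 (median 234) and 227.6 to 302.9 CPM in controls (median 271). It fell by 0.20 (SE 0.04, adjusted p = 0.0401). The groups overlapped, with 2 of 8 Q140 libraries below every control and 8 of 8 below their median. Its promoter is shown with that of Msmo1, the sterol oxidase with the most negative difference of the pathway without the libraries that stand apart. Both hold a match to the core of a sterol regulatory element, the site of SREBP2, and to the box of its partner NF-Y. Relative to the start, the core lies at -177 in Msmo1 and the nearest box at -160. In Hmgcs1 the core lies at -137 and the nearest boxes on either side at -176 and -45. The sequences are from RefSeq (GRCm38.p6), 250 bases before to 50 after the start, 5' to 3' on the strand of the gene, at chr13:119690101-119690400 (plus strand) and chr8:64733529-64733828 (minus strand). Capitals mark TCACNCCA and CCAAT on either strand, the latter read as ATTGG on the other.
Hmgcs1: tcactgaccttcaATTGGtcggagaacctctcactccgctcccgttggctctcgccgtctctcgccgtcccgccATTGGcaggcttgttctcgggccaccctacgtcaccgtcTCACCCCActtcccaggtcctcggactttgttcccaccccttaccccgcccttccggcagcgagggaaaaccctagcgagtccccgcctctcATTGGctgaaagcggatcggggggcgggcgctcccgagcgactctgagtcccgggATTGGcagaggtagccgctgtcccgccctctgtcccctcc
Msmo1: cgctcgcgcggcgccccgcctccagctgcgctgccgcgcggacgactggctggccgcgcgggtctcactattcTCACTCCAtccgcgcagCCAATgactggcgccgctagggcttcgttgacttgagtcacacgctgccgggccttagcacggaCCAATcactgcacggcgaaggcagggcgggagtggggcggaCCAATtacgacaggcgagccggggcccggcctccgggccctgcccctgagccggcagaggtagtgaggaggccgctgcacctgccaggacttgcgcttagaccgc
TCACNCCA was found in the promoters of 3 of the 17 sterol synthesis genes matched by symbol (Hmgcs1, Msmo1 and Srebf2) and in a promoter of that length of 4.97% of all 27025 genes of the table. CCAAT was found in 16 of the 17 and in 41.1% of all genes. A match describes the letters only, and binding was not measured.

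Hmgcs1 was 1 of 24 genes of sterol synthesis and its regulation that were tested, and most of them were lower in Q140. With all libraries, Hmgcs1 alone fell, 7 had an unadjusted p under 0.05, all lower (3.11% of all genes), and 20 of 24 differences were below 0, with a median of -0.14 against -0.01 over all genes. Without the libraries that stand apart, 7 of 24 fell and none rose, where 0.807% of all genes were called (139 of 17216), 0.476% as higher (82) and 0.331% as lower (57). In that comparison 13 of 24 were lower at an unadjusted p under 0.05, against 7.31% of all genes, and 21 of 24 differences were below 0 (median -0.10 against -0.01 over all genes).

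The genes that fell spanned the pathway. Msmo1 had 74.37 to 90.35 CPM in Q140 (median 79.9) and 83.25 to 108.9 CPM in the 14 controls (median 94.6), and fell by 0.24 (SE 0.05, adjusted p = 0.0166). Sqle, the epoxidase of squalene, had 55.96 to 65.43 CPM in Q140 (median 57.5) and 60.93 to 77.67 CPM in the 14 controls (median 66.3), and fell by 0.19 (SE 0.04, adjusted p = 0.00913). Nsdhl, a decarboxylating sterol dehydrogenase, had 20.93 to 24.28 CPM (median 22.9) and 23.57 to 27.53 CPM (median 25.6), and fell by 0.18 (SE 0.03, adjusted p = 0.00716). For each of Hmgcs1, Sqle and Nsdhl, 7 of 8 Q140 libraries lay below all 14 controls, and for Msmo1 6 of 8 did. Idi1, the isomerase of the isoprenoid units, fell by 0.20 (adjusted p = 0.0346), Sc5d, a late desaturase, by 0.13 (adjusted p = 0.015) and Stard4, a cholesterol carrier, by 0.20 (adjusted p = 0.0311). Fdft1, the squalene synthase, at -0.17 (adjusted p = 0.0525) and Insig1, which restrains SREBP2, at -0.23 (adjusted p = 0.0903) did not pass, although 8 of 8 Q140 libraries lay below the control median for both. Srebf2, which encodes SREBP2, differed by 0.09 (adjusted p = 0.495).

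**Figure D2:**
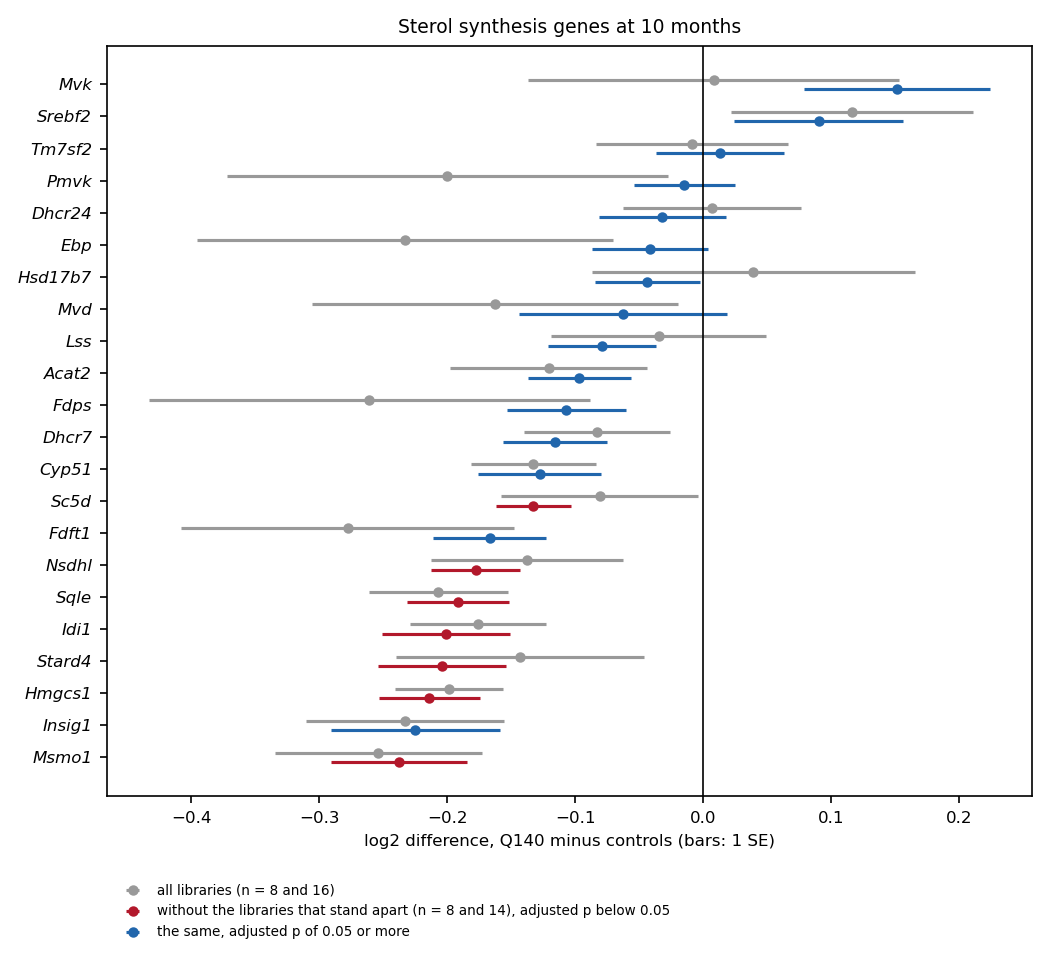
Log2 difference (Q140 minus controls, with 1 SE) of 22 of the 24 sterol synthesis genes with all libraries (grey) and without the libraries that stand apart (red where the adjusted p is below 0.05, blue otherwise). The red and blue points of 19 of the genes drawn lie below 0, and 7 are red.

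Library numbers at 10 months form 2 runs, which held 3 and 5 Q140 libraries and 10 and 6 controls. The median of the sterol genes was below 0 within each. Without the libraries that stand apart, 19 of 24 sterol genes were below 0 in the first run alone (median -0.15, 0 called, 11 at an unadjusted p under 0.05) and 23 of 24 in the second (median -0.12, 0 called, 11 unadjusted). Over all genes 0% were called in the first run and 0.0171% in the second. With the run as a covariate 6 of the 24 fell (0.244% of all genes). Against WT alone 0 fell (0.0174%) and 21 were below 0 (11 unadjusted), and against Q20 alone 6 fell (0.238%) and 20 were below 0. Leaving out the controls above 1000 CPM of Ttr as well called 5.5% of all genes (955 of 17355), 3.7% as higher and 1.8% as lower, and among these calls were 8 of the 24, all lower. Without only the libraries that stand apart, Acss2, which makes acetyl-CoA from acetate, fell by 0.13 (adjusted p = 0.00329) and Fads1, a fatty acid desaturase, by 0.12 (adjusted p = 0.0103). These 2 lipid enzymes are in no list and were chosen after their values were seen. Fads1 was 1 of 4 genes (0.0233% of those tested) whose Q140 libraries did not overlap with the 14 controls, at 193.4 to 202.1 CPM (median 197.9) against 202.4 to 232.2 CPM (median 216.8). The others were Car2, Aldh1b1, a mitochondrial aldehyde dehydrogenase (9.088 to 10.69 against 6.826 to 8.916 CPM, up by 0.28, adjusted p = 0.00329), and Drc1, part of the complex that regulates dynein in motile cilia, whose gene lies on chromosome 5 (12.04 to 14.31 against 9.115 to 11.51 CPM, up by 0.33, adjusted p = 0.00913). Drc1 is 1 of 16 ependymal and motile cilia genes listed. With all libraries 0 of the 16 were called (0.0695% of all genes), and 13 were below 0 and 3 above (median -0.21).

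Glial genes moved in both directions. Of 16 astrocyte markers, Il33 fell with all libraries (0.0232% of all genes) and 4 fell without the libraries that stand apart (0.331%). Aqp4, the water channel of astrocyte endfeet, had 123.4 to 149.7 CPM in Q140 (median 144) and 139.8 to 182.1 CPM in the 14 controls (median 157), and fell by 0.18 (adjusted p = 0.0116). Gja1, the gap junction protein connexin 43, had 181.3 to 211.1 CPM (median 196) and 197.2 to 232.6 CPM (median 214), and fell by 0.13 (adjusted p = 0.02). Itih3, a hyaluronan-binding protein, fell by 0.22 (adjusted p = 0.0183) and Il33 by 0.39 (adjusted p = 3.73e-04). For each of the 4, 8 of 8 Q140 libraries were below the control median. Glial fibrillary acidic protein, Gfap, differed by -0.09 (adjusted p = 0.362). The median of the list was -0.05, but 0.03 in the first run alone and -0.12 in the second. Without the controls above 1000 CPM of Ttr as well, 5 fell (1.8% of all genes) and the median was -0.06. Of 44 potassium channel genes only Kcnj10, a channel of astrocytes, was called without the libraries that stand apart (-0.14, adjusted p = 0.0346; 0.331% of all genes fell). The list median was 0.001, with 23 of 44 above 0. S100b, a calcium-binding protein of astrocytes and oligodendrocytes, rose by 0.18 (adjusted p = 0.0128) in the same comparison. S100b and Kcnj10 were chosen after their values were seen.

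In the oligodendrocyte lineage, Enpp6, a choline phosphodiesterase of newly formed oligodendrocytes, had 4.677 to 6.993 CPM in Q140 (median 6.44) and 1.954 to 5.714 CPM in the 14 controls (median 4.57). It rose by 0.49 (SE 0.11, adjusted p = 0.0173), with 6 of 8 Q140 libraries above every control. Enpp6 was the only 1 of 10 markers of precursors and newly formed cells to pass (0.476% of all genes rose). Of 15 markers of myelinating oligodendrocytes, 0 passed with all libraries. Without the libraries that stand apart, Anln, a cytoskeletal scaffold of myelin, rose by 0.32 (adjusted p = 0.03; 0.476% of all genes rose). Ugt8a, the enzyme of galactolipid synthesis, fell by 0.30 (adjusted p = 0.044; 0.331% of all genes fell). Of these 15, 3 rose (3.7% of all genes) and 1 fell (1.8%) without the controls above 1000 CPM of Ttr as well. Among the myelin genes that did not pass were Mbp at 0.05 (adjusted p = 0.808) and Mog at 0.09 (adjusted p = 0.555).

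The next 6 genes were picked from the 139 calls after their values were seen and are no test of the lineage, whose 2 lists had 1 of 10 and 2 of 15 members called (0.807% of all genes). Olig1, a transcription factor that specifies oligodendrocytes, had 48.06 to 70.1 CPM in Q140 (median 63.8) and 36.02 to 58.43 CPM in the 14 controls (median 47.6), and rose by 0.38 (SE 0.08, adjusted p = 0.0123), with 7 of 8 Q140 libraries above every control. Sox8, a transcription factor of glia, rose by 0.32 (adjusted p = 0.00238), Zfp488, an oligodendrocyte regulator, by 0.18 (adjusted p = 0.0194) and Sirt2, a deacetylase abundant in oligodendrocytes, by 0.17 (adjusted p = 0.0123). Smoc1, a secreted matrix protein, rose by 0.29 (adjusted p = 0.00329), and Tspan2, a tetraspanin of myelin, fell by 0.29 (adjusted p = 0.0404). Of 31 semaphorins, plexins and neuropilins, the guidance ligands and their receptors, 3 rose (0.476% of all genes) and 0 fell without the libraries that stand apart, and 0 passed with all libraries. The 3 were Plxnb3, a plexin of oligodendrocytes, at 0.36 (adjusted p = 0.012), Sema4d, a ligand of plexin B receptors, at 0.17 (adjusted p = 0.0217) and Sema4f at 0.14 (adjusted p = 0.0402).

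**Figure D3:**
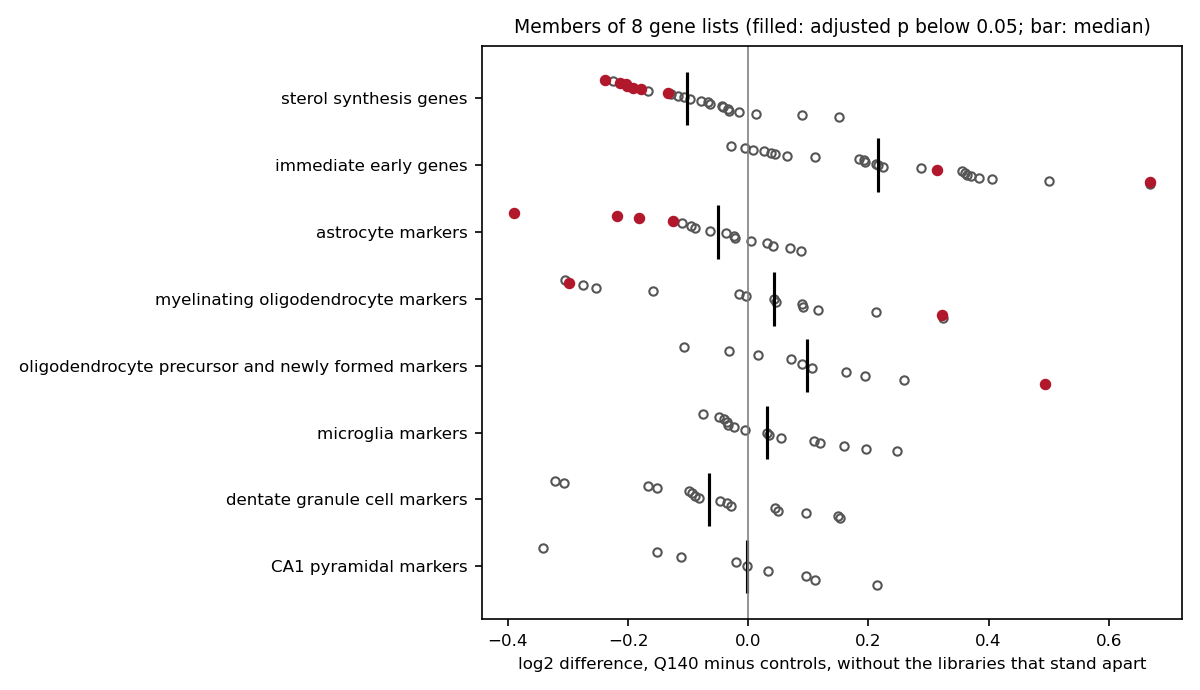
Log2 difference of each tested member of 8 gene lists (Q140 minus the 14 controls that do not stand apart). Filled points have an adjusted p below 0.05 and bars are list medians. Sterol synthesis has 7 filled points, all below 0, astrocyte markers have 4, all below 0, and immediate early genes have 2, both above 0.

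Genes of neuronal activity were mostly higher in Q140. Of 25 immediate early genes, which neurons switch on within minutes of firing, 0 passed with all libraries, but 8 had an unadjusted p under 0.05, all higher (2.53% of all genes), and the median was 0.24. Without the libraries that stand apart, 2 rose (0.476% of all genes). In that comparison 11 were higher at an unadjusted p under 0.05 against 9.46% of all genes, and 23 of 25 differences were above 0 (median 0.22). Nptx2, a secreted pentraxin that clusters AMPA receptors, had 16.06 to 24.97 CPM in Q140 (median 18.5) and 13.71 to 18.87 CPM in the 14 controls (median 14.9), and rose by 0.32 (SE 0.07, adjusted p = 0.0139). Egr4, a zinc finger transcription factor, had 5.822 to 15.18 CPM (median 7.5) and 3.347 to 8.428 CPM (median 5.18), and rose by 0.67 (SE 0.16, adjusted p = 0.03). For both genes 3 of 8 Q140 libraries exceeded every one of the 14 controls. The better known Fos (0.50, adjusted p = 0.298), Npas4 (0.37, adjusted p = 0.278) and Arc (0.36, adjusted p = 0.353) did not pass. Of the 25, 21 were above 0 in the first run of library numbers alone (median 0.23) and 24 in the second (median 0.19), and 0 were called in either. Without the controls above 1000 CPM of Ttr as well, 4 rose (3.7% of all genes) and the median was 0.34.

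Few markers of neurons passed. Without the libraries that stand apart, 0 of 9 CA1 pyramidal, 0 of 14 CA2 and CA3 pyramidal and 0 of 16 dentate granule cell markers were called (0.807% of all genes), with medians of -0.002, -0.01 and -0.06. When the controls above 1000 CPM of Ttr were also left out, 1 CA1 and 2 CA2 and CA3 markers rose (3.7% of all genes) and 1 dentate marker fell (1.8%), and against Q20 alone 1 dentate marker fell (0.238%). Of 15 interneuron markers Cck, a neuropeptide, rose by 0.16 without the libraries that stand apart (adjusted p = 0.03; 0.476% of all genes rose). Markers of microglia (0 of 15), GABA-A receptor subunits (0 of 14) and genes of CAG repeat repair (0 of 18) did not pass either, although 5 of the 15 microglia markers were higher at an unadjusted p under 0.05 (9.46% of all genes). Without the controls above 1000 CPM of Ttr as well, 3 microglia markers and 1 repair gene rose and 2 GABA-A subunits fell. Of the 12 choroid plexus markers 0 passed, but 12 of 12 were lower in Q140 with all libraries (median -2.15) and 12 of 12 without those that stand apart (median -1.66). With all libraries, 12 of 12 were lower at an unadjusted p under 0.05 in edgeR's test, against 3.11% of all genes.

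The number of genes called depended on which libraries were fitted. It was 12 with all libraries and 139 without the 5 that stand apart, of which 2 are controls and 3 are of other alleles (Q80, Q92 and Q175). Leaving out those 2 controls alone gave 17 calls. When the 3 further controls above 1000 CPM of Ttr were left out with the 5, the count was 955. The control females then left, WT female 1 and Q20 females 1, 2 and 3, are all of the first run of library numbers. Q140 females are in both runs. This setting thus changes the sex and run make-up of the controls along with their choroid plexus content. From all libraries, leaving out Q140 female 1 or Q140 female 2 alone gave 1 call. The 139 included all 12. With the run of library numbers as a covariate, the counts of 139 and 955 became 109 and 194. All libraries gave 35 calls in DESeq2, of which 17 rose and 18 fell. Against WT alone 0 genes were called (0%; 531 at an unadjusted p of 0.05, 3.08%) and against Q20 alone 10 (0.0579%). Without the libraries that stand apart these counts were 8 against WT and 109 against Q20. Q20 and WT differed in 3 genes (0.0174%), Abhd1 (1.28, adjusted p = 0.00531) and the Y-linked Ddx3y and Eif2s3y, where Q20 female 5 is the library that goes against its label. For Slc45a3, the gene with the lowest p, the difference ran from 0.78 to 1.26 over 50 alternatives and passed in 44 of them. Shroom1 passed in 37 of 50, Wnt3 in 34, Il33 in 31, Car2 in 29, Dusp15 in 24, Tmprss5 in 20, Hmgcs1 in 19, Gm7361 in 17 and Psat1 in 13, while Cldn14 passed in 26 of 49 and Gm10471 in 10 of 46.

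**Figure D4:**
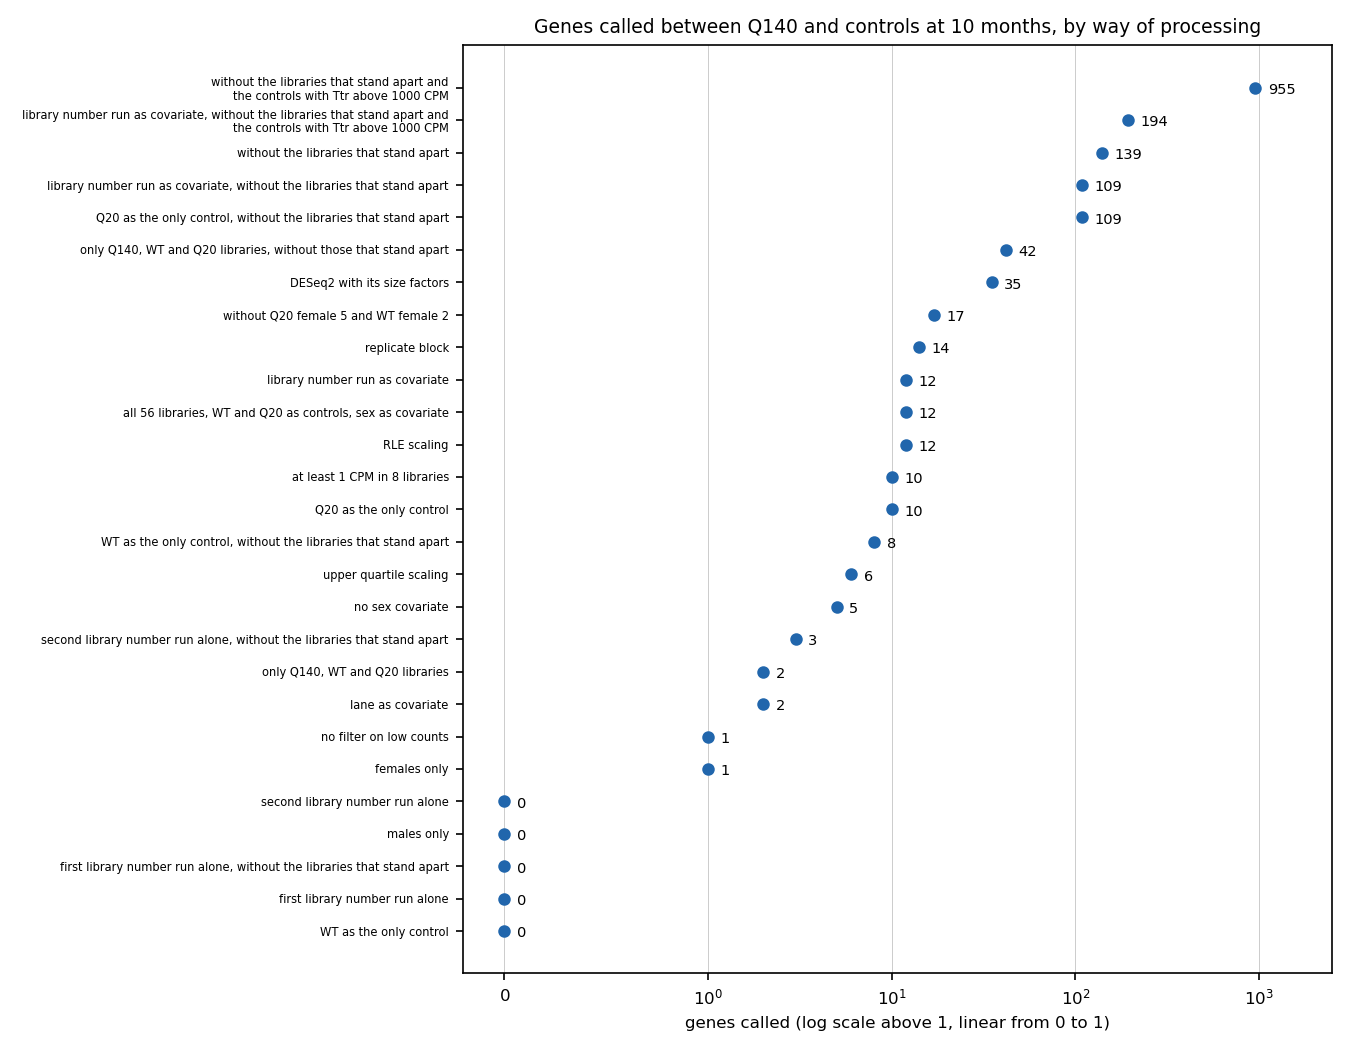
Number of genes with an adjusted p below 0.05 between Q140 and controls at 10 months under each way of processing, on an axis that is logarithmic above 1. The counts run from 0 to 955, with 12 for all libraries.

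The other alleles of the series were set beside Q140 to see where it differed from its neighbours in repeat length. All lines share the same 16 controls, so their values against controls are not independent. Against these controls 0.0753% of genes were called in Q80, 0.0116% in Q92, 0.0232% in Q111 and 4.33% in Q175. Slc45a3 differed from controls by 0.02 in Q80, 0.41 in Q92, 0.87 in Q111, 1.10 in Q140 and 1.26 in Q175. Hmgcs1 differed by -0.03, -0.01, -0.10, -0.20 and -0.24 in the same order. Gm7361 differed by -0.74, -0.50, -0.72, -0.93 and -0.27. Compared with each other, Q140 and Q111 differed in 0 genes in edgeR (0%; 166 at an unadjusted p of 0.05, and 1 in DESeq2).

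Q140 and Q175 differed in 340 genes (1.97%), of which 250 were higher in Q140 (1.45%) and 90 lower (0.521%). The Q175 group holds male 4, which stands apart (connectivity -20.18, 77.36 CPM of Htt, 6622 CPM of Ttr). Without the libraries that stand apart 1740 genes differed (10.1%), 1092 higher (6.34%) and 648 lower (3.76%). In neither comparison was any of the 12 genes called against controls among them, with Cldn14 at -0.72 (adjusted p = 0.287) and Gm7361 at -0.67 (adjusted p = 0.13) with all libraries. Choroid plexus markers were lower in Q140 than in Q175 for 5 of 12 with all libraries (median -2.79) and for 0 of 12 without those that stand apart (median -1.38). Developmental transcription factors, which set regional identity in the embryo and are largely silent in adult neurons, were listed with 38 members, of which 20 passed the filter on low counts. Members that are silent in Q140 and controls could pass it only through Q175, so their calls (6 lower and 1 higher) are given as a description. Of the 15 tested members with a median of at least 0.3 CPM in Q140, 3 were lower and called. Pax2 and Skor1 are not among the 15, with medians of 0.24 and 0.113 CPM in Q140, and their levels are a description only. Pax2, a factor of hindbrain and inner ear development, had 0.1088 to 0.5084 CPM in Q140 and 0.07702 to 0.4056 CPM in controls. In Q175 it had 3.406 to 5.633 CPM (Q140 minus Q175 -3.94). Q140 overlapped with controls and not with Q175, and Skor1, a transcriptional corepressor, behaved alike (0.03 to 0.1915 CPM in Q140, 1.945 to 6.076 CPM in Q175). Markers of principal neurons were higher in Q140 than in Q175 for 4 of 16 of dentate granule cells, 3 of 9 of CA1 and 4 of 14 of CA2 and CA3 with all libraries, for 9, 6 and 6 without those that stand apart, and 0 were lower in either. Nptx2 was also higher, by 0.34 (adjusted p = 0.0209).

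**Figure D5:**
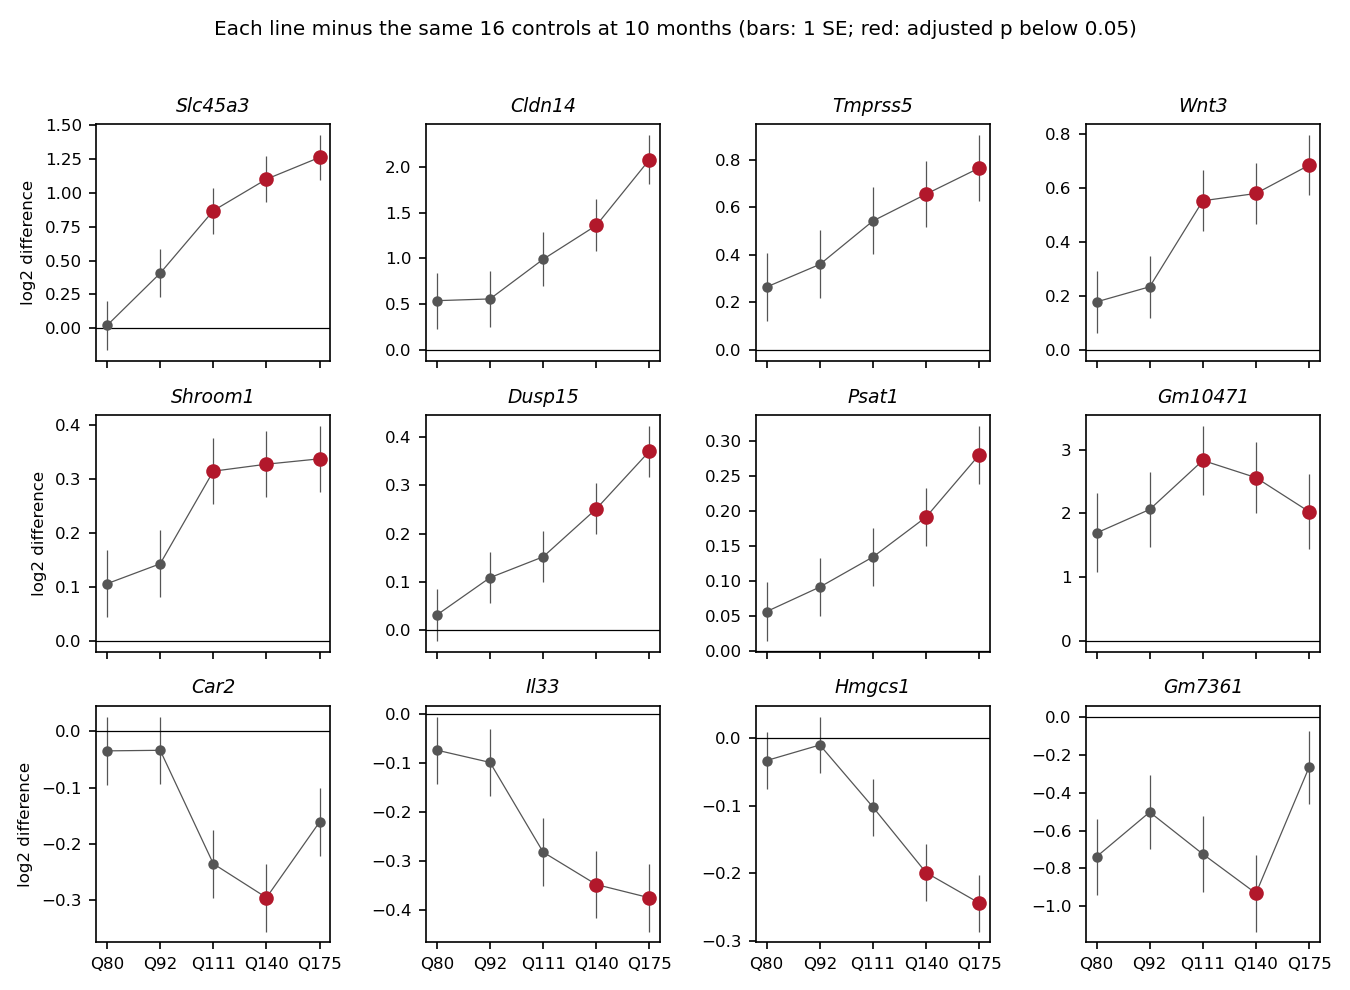
Log2 difference from the same 16 controls at 10 months (with 1 SE) in Q80, Q92, Q111, Q140 and Q175 for the 12 genes called in Q140, with red points for an adjusted p below 0.05. Slc45a3 goes from 0.02 in Q80 to 1.26 in Q175, whereas Gm7361 is below 0 in every line and red in Q140 alone.

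To ask whether the Q140 difference belonged to this age, it was compared with that at 2 and 6 months in 1 fit of the libraries of all 3 ages. With all libraries, the difference changed between ages for 0 genes, both from 6 to 10 months (0%; 593 at an unadjusted p of 0.05) and from 2 to 10 months (0%; 960 unadjusted). The younger Q140 groups hold libraries that stand apart, female 4 at 2 months (connectivity -39.82) and male 1 at 6 months (-5.581). Without the libraries that stand apart at any age, the change from 2 to 10 months was called for 3 genes. Slc45a3 had 0.7531 to 1.714 CPM in Q140 at 2 months, 0.9136 to 1.694 CPM at 6 months and 1.044 to 1.815 CPM at 10 months, on the scaling of this fit. Its difference from controls was 0.47 at 2 months (adjusted p = 0.686), 0.90 at 6 months against Q20 (adjusted p = 0.0534) and 1.10 at 10 months, and the change from 2 to 10 months was 0.63 (SE 0.24, unadjusted p = 0.0107, adjusted p = 0.818). Gm7361 was low in Q140 at each age, with medians of 1.08, 0.959 and 1.18 CPM, and its difference was -1.05 at 2 months (adjusted p = 7.28e-04; 0.0446% of genes called) and -0.91 at 6 months (adjusted p = 0.0913; 0.00558%). Wnt3 differed by 0.20 at 2 months and -0.03 at 6 months (adjusted p = 0.793 and 1), against 0.60 at 10 months in this fit, and the change from 6 to 10 months was 0.62 (unadjusted p = 0.00262, adjusted p = 1).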

How the data were processed

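Hippocampal RNA of 8 mice per genotype and age was sequenced, and expected counts per gene, estimates that the authors deposited without scaling, were analysed (16.89% are not whole; all were rounded). FPKM values of the same libraries were not used. Per the labels, reads came from CASAVA 1.8.2. The aligner, counter, build and annotation are not given in the sources at hand. Nothing says whether counting used strand, so overlapping or antisense partners cannot be separated. Of 39179 identifiers, 37693 were named by GENCODE M21 (GRCm38). In R 4.3.3, edgeR 4.0.16 was used with filterByExpr (minimum count 10, minimum total 15), TMM scaling and the two-sided quasi-likelihood F test on all 56 libraries of 10 months, with WT and Q20 as 1 control level, sex as covariate and Benjamini-Hochberg adjustment at 0.05. "Rose" and "fell" mean genes past it. DESeq2 1.42.0 was an alternative. The fit of all ages held 17934 genes, with Q20 alone as control at 6 months. Connectivity was computed over 14506 genes with a threshold of -5. Counting error limits genes below 1 CPM. Replicates are separate animals. The procedure was tested on simulated data, which modelled neither libraries that stand apart nor differences in choroid plexus content or library run. Named genes were Htt, up to 15 called genes per direction by p (at least 1 CPM in either group, 7 of 8 Q140 libraries on 1 side of the control median), the 3 largest called differences per direction and up to 4 called members of each of 46 lists. Members of lists called without the libraries that stand apart were named likewise. Members and lists were chosen with earlier results of these data known. The closing section gives the effect of the alternatives, of which those on library runs without libraries that stand apart, on Ttr and on combined choices were added after seeing the data. Results of 3 list members are not reported here, and 2 of them are left out of the plot of sterol genes.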

Additional observations from a re-analysis of the deposited data

Results flagged for a closer look

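A library far from the others of its group, by Dixon's test at 95%, was found in 3 of the 39 groups of library levels tested, and chance alone marks about 1 in 20. Htt was lowest in Q20 female 5 at 124.1 CPM, the library with the lowest connectivity. Hmgcs1 was highest of Q140 in male 4 at 265.5 CPM, within the range of the controls. Gm10471 was highest of WT in female 3 at 0.1311 CPM, which is 5 reads.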

How the results depend on the processing

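The 12 calls of Q140 against controls at 10 months became 35 in DESeq2 (17 up, 18 down, against 8 and 4), 6 with upper quartile scaling, 1 without a filter on low counts, 2 in the 24 libraries alone, 139 without the libraries that stand apart, 0 with WT as the only control, 5 without the sex covariate, 0 in either run of library numbers alone, 2 with lane as covariate, 1 in females and 0 in males. The replicate block gave 14, although replicate numbers do not pair the animals (correlation of deviations -0.26 to 0.058 for Q140 and WT and -0.305 to 0.393 for Q140 and Q20). Of the alternatives chosen after seeing the data, all without the libraries that stand apart, the 24 libraries alone gave 42, WT as the only control 8, Q20 as the only control 109, the run as covariate 109, the first run alone 0, the second 3, and leaving out the controls above 1000 CPM of Ttr 955 (194 with the run as covariate). Leaving out only the 2 controls that stand apart gave 17. The cause of these shifts was not tested, beyond the smaller number of libraries in the subsets. Leaving out single libraries gave 1 to 15 calls. The count was 7 or fewer without Q140 females 1, 2, 3 or 4 or males 2 or 4, Q20 females 1, 2 or 3 or males 1 or 2, or WT females 1 or 2 or males 1, 2 or 4. None of the 12 genes or Htt changed sign under any alternative. Q140 against Q175 went from 340 to 1740 calls without the libraries that stand apart. Q140 against Q111 went from 0 to 1 in DESeq2 and to 1 without those libraries, the difference between sexes from 0 to 2 and 1, and Q20 against WT from 3 to 8 and 1, with 1 under a replicate block. Without libraries that stand apart at any age, the change from 2 to 10 months went from 0 to 3 and Q140 against Q20 at 6 months from 1 to 3, or 2 without the filter. Depth limits Cldn14 and Gm10471, with at most 25 reads in a library.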
